A study of Mus musculus with 12 samples.

Results

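The genes described here are 10 that code for intermediate filament proteins: the keratins Krt7, Krt8, Krt18, Krt19, Krt20, Krt23 and Krt80, and vimentin (Vim), nestin (Nes) and desmin (Des). They were taken by symbol, and all 10 are among the 47729 genes of each count table. RNA was sequenced from 6 mouse liver cancer cell lines, 3 grown from lymph node metastases (M1, M2 and M3) and 3 from primary liver tumours (T1, T2 and T3). Every line is labelled as carrying BRAFV600E together with p53 KO, while the overall design describes BRAFV600E restricted to hepatocytes, with Trp53 or Cdkn2a deleted. Each line gave 1 library after 48 h in 2 µM PLX4720, an inhibitor of mutant BRAF, and 1 library after DMSO, the solvent. The groups are therefore PLX4720-treated metastasis lines, DMSO-treated metastasis lines, PLX4720-treated primary lines and DMSO-treated primary lines, with 3 libraries each. A replicate is a cell line. Whether any lines came from the same animal is not stated, and the deposited tables give M2, M3 and T3 a common number. The p-values between sites measure the spread between these lines, and those for PLX4720 the spread of its change among them. The lines may not be independent.

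Intermediate filaments are the rope-like part of the cytoskeleton, and which proteins build them differs between cell types. Keratins assemble only as pairs of an acidic type I chain (Krt18, Krt19, Krt20, Krt23) with a basic type II chain (Krt7, Krt8, Krt80). Hepatocytes hold Krt8 and Krt18, and bile duct cells add Krt7 and Krt19. Vimentin is the main filament protein of fibroblasts and other mesenchymal cells, and it is also made by many cells in culture. Nestin is known from neural and other progenitor cells, and desmin from muscle and hepatic stellate cells.

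Both keratin gene clusters of the mouse are represented. Krt80, Krt7, Krt8 and Krt18 lie on chromosome 15, and Krt20, Krt23 and Krt19 on chromosome 11 (GRCm38). Krt18 is the type I gene that lies with the type II genes: Krt8 (minus strand, 101996711 to 102004342) and Krt18 (plus strand, 102028216 to 102032026) point away from each other with 23873 bases between them. Vim, Nes and Des lie on chromosomes 2, 3 and 1. RefSeq (GRCm38.p6) held the 250 bases before the start for 8 of the 10 genes. The sequences of Krt8 and Krt18 are shown because their transcripts moved together between sites, and that of Krt20 because its response to PLX4720 differed between sites. Each is written 5′ to 3′ up to the first base that an annotation places in an exon of a gene at the locus, and capitals mark matches to the motifs named after the sequences.
Krt8, chr15:102004483-102004592, minus strand: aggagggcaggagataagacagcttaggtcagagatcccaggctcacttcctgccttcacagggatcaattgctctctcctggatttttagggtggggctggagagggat
Krt18, chr15:102027966-102028179, plus strand: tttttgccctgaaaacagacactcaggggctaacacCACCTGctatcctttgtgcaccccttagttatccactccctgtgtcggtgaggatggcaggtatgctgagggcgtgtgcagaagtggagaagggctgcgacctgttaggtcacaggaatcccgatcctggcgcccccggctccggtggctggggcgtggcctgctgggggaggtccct
Krt20, chr11:99438154-99438403, minus strand: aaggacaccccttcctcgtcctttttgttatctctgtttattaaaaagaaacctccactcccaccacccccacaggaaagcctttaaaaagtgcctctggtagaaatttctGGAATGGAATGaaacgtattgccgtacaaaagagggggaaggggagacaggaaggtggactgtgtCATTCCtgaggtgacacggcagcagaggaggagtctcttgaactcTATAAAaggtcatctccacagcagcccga
Motifs were searched in the whole 250 bases on both strands, and matches of different motifs did not overlap in these genes. The E-box CAGGTG, which binds SNAIL and ZEB repressors, matched in Krt8 (in the stretch not printed, from base -111), Krt18 (-214), Krt7 (-44) and Krt23 (-232), and in 17.2% of the 32851 RefSeq promoter windows. TATAAA matched in Krt20 (-29) and Vim (-32) and in 12.4% of windows. GGAATG, the TEAD element, matched only in Krt20 among the 8 genes, from bases -139 and -134, which share a base, and -74, and in 12.6% of windows. The GC box GGGCGG matched in Krt7, Nes and Des and in 32.7% of windows, and the AP-1 element TGANTCA in none of the 8 genes and in 6.75% of windows. These matches describe letters only.

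Libraries held 31992512 to 39288748 counted fragments. The mitochondrial share was 3.67% in the PLX4720 library of T3 and 0.189% to 0.712% elsewhere. Levels are given as CPM, the counts of a gene relative to the scaled library size. All lines are labelled as hepatocellular carcinoma (HCC). In the metastasis lines general epithelial markers and most hepatocyte markers were near 0. The 12 general epithelial markers summed to 0.876 to 1.82 CPM in metastasis lines with PLX4720 and 0.964 to 3.8 CPM with DMSO, against 641 to 821 CPM in primary lines with PLX4720 and 438 to 577 CPM with DMSO. Cdh1 (E-cadherin) was at 0 to 0.783 CPM in metastasis libraries, against 368 to 750.2 CPM in primary libraries. The 12 hepatocyte markers summed to 9.43 to 54.2 CPM in metastasis lines and 805 to 1862 CPM in primary lines, with 6 of the 12 at 0 in each metastasis group. Alb, coding for albumin, was at 0 in every metastasis library and at 0.132 to 15.5 CPM in primary libraries, where Apob (626 to 1534 CPM) and Hnf4a (119.9 to 261 CPM) led the list. Ass1, a urea cycle enzyme, had the highest mean of the hepatocyte list in both metastasis groups, at 4.64 to 52.4 CPM with PLX4720 and 7.77 to 51.2 CPM with DMSO, against 0.109 to 37.5 CPM and 0.0526 to 14.1 CPM in primary lines.

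Markers of mesenchymal cells ran the other way. The 12 fibroblast and stellate markers summed to 5223 to 12084 CPM in metastasis lines with PLX4720 and 2232 to 5437 CPM with DMSO, against 2.26 to 32 CPM in primary lines with PLX4720 and 3.27 to 16.0 CPM with DMSO. Col1a2, a collagen I chain, reached 397 to 6799 CPM in metastasis libraries and at most 0.684 CPM in primary libraries. Lrat, a stellate cell marker, was at 0 in all groups, and Hand2 in every group but DMSO-treated metastasis lines. The 10 smooth muscle and pericyte markers summed to 1861 to 3813 CPM in metastasis lines with PLX4720 and 214 to 886 CPM with DMSO, and to 75.4 to 137 CPM in primary lines. Among 8 mesothelial markers Msln led, at 0.121 to 2.15 CPM in metastasis libraries and 498 to 775 CPM in primary libraries. The 12 cholangiocyte markers, led by Spp1, summed to 1275 to 9295 CPM in metastasis lines and 822 to 4585 CPM in primary lines, and Epcam stayed at or under 4.45 CPM in all libraries. Sox9 of this list was at 10.6 to 28.9 CPM in metastasis libraries and 5.27 to 36.7 CPM in primary libraries. The 6 lymph node stroma markers summed to 24.4 to 97.4 CPM in metastasis lines, carried by Pdpn, and 0.421 to 6.30 CPM in primary lines, with Ccl21a at 0 in every group. The 8 neural and glial markers, among them Sox2, Tubb3 and Map2, summed to 45.2 to 134 CPM in metastasis lines and 16.9 to 131 CPM in primary lines. These sums join unlike genes. Sox2 was at 13.7 to 117 CPM in metastasis libraries and 0 to 11.1 CPM in primary libraries. Tubb3 was at 5.19 to 14.2 CPM and 12.9 to 57.5 CPM, and Map2 reached 105 CPM in T3 with PLX4720. The 8 endothelial markers reached 2.38 CPM in metastasis lines and 75.1 CPM in primary lines, the 10 leukocyte markers 34.6 and 11.3 CPM, and the 8 skeletal muscle markers 0.856 and 0.775 CPM. Tek in T1 with DMSO gave 69.4 of the 75.1 CPM, and the lowest primary sum of endothelial markers was 0.368 CPM. Cd53 in M1 with DMSO gave 31.7 of the 34.6 CPM, and the lowest metastasis sum of leukocyte markers was 3.27 CPM. Several of the marker lists move with the site, and several with PLX4720. Their part in the results was not tested, and in bulk RNA fewer cells of a type and less RNA per cell cannot be told apart.

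**Figure D1:**
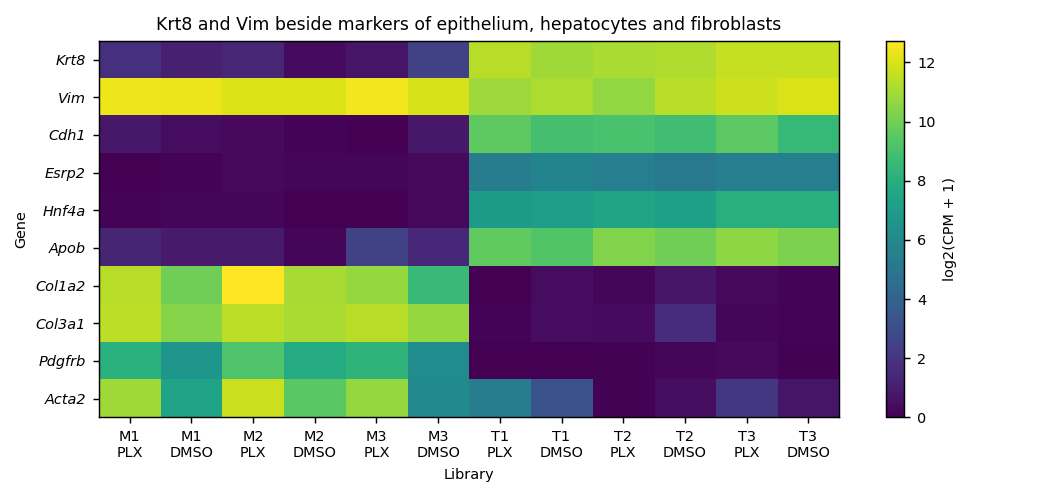
Level of Krt8 and Vim and of 8 marker genes in each library, as log2(CPM + 1) in colour, with genes in rows and libraries in columns (metastasis lines M1 to M3 on the left, PLX4720 left of DMSO). Krt8, Cdh1, Esrp2, Hnf4a and Apob are bright in primary lines, Col1a2, Col3a1, Pdgfrb and Acta2 in metastasis lines, and Vim in all 12 libraries.

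The make-up of the filament transcripts separated the sites. Per kb of exon, levels of different genes can be compared only roughly, since all annotated exons of a gene count. That length was 4743 bases for Vim and 7055 for Krt7, against 1805 for Krt8 and 1400 for Krt18. By this measure Vim held 99.0% to 99.4% of the summed level of the 10 genes in metastasis lines with PLX4720. With DMSO it held 98.0% to 99.4% there. In primary lines Vim held 9.66% to 13.5% with PLX4720 and 12.8% to 16.2% with DMSO, and the 7 keratins held 84.5% to 89.8% and 81.8% to 86.0%. Keratins took 0.000713% to 0.00156% of all counted fragments in metastasis lines with PLX4720 and 0.000292% to 0.00192% with DMSO. In primary lines they took 0.544% to 0.769% with PLX4720 and 0.534% to 0.766% with DMSO.

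In primary lines the order of mean levels began with Krt18 and Krt8. Per kb, Krt18 averaged 1538 ± 352 CPM with PLX4720 and 1794 ± 432 CPM with DMSO, and Krt8 averaged 1476 ± 235 and 1374 ± 346 CPM (SD, n = 3 lines each), with overlapping ranges. Krt19 and Vim followed, at 651 ± 88.6 and 488 ± 205 CPM per kb with PLX4720, where they overlapped, and 466 ± 16.5 and 653 ± 226 with DMSO, where they did not. Nes, Krt20, Krt23 and Krt7 came next, all between 17.7 and 89.8 CPM per kb on average with neighbours overlapping, then Krt80 (9.49 ± 8.79 and 6.82 ± 4.91) and Des (0.0234 and 0.0179). This order depends on the exon length used. Without it, Krt7, Krt20 and Krt23 averaged 137, 76.2 and 31.1 CPM with PLX4720, and 125, 83.0 and 141 CPM with DMSO. In metastasis lines Vim stood alone, at 1086 ± 157 CPM per kb with PLX4720 and 949.9 ± 137 with DMSO. Every other member averaged at most 2.68 CPM per kb with PLX4720 and 4.62 with DMSO. The next in order there were Krt19, Nes, Krt80, Krt18, Krt8 and Krt7 with PLX4720, each overlapping its neighbour.

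Krt8 and Krt18, which form 1 filament pair, kept similar levels per kb in the primary lines. The ratio of Krt8 to Krt18 was 1.10, 0.936 and 0.878 with PLX4720 in T1, T2 and T3, against 0.782, 0.729 and 0.785 with DMSO, higher with PLX4720 in each of the 3 lines. In M1, M2 and M3 it was 1.18, 0.960 and 0.438 with PLX4720, against 0.483, 1.55 and 0.403 with DMSO, on as few as 5 fragments of Krt18 in a library.

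**Figure D2:**
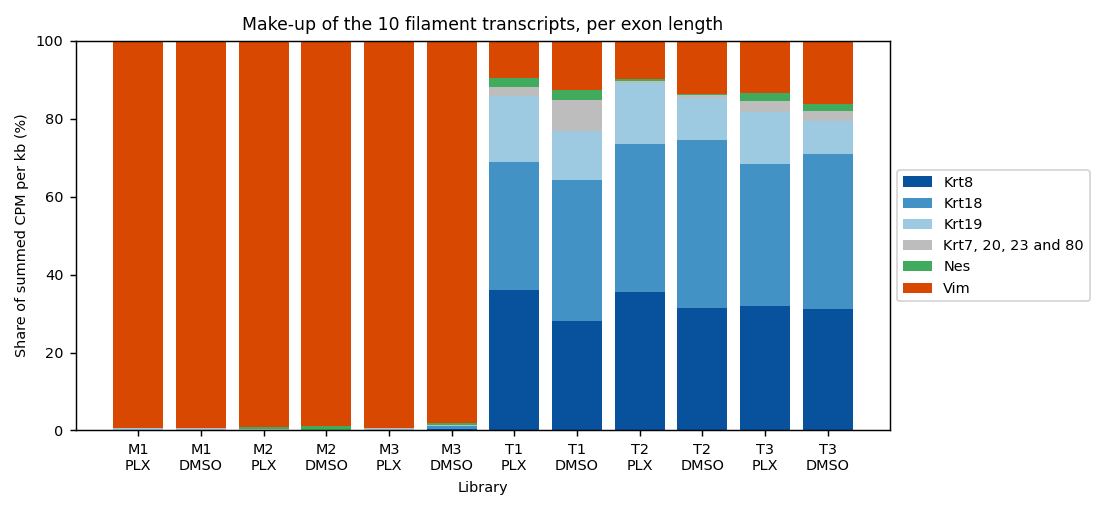
Share of each gene in the summed level of the 10 filament genes (CPM per kb of exon, in %), 1 bar per library, PLX4720 left of DMSO in each line. Vim fills 98.0% or more of every metastasis bar, and Krt8, Krt18 and Krt19 fill most of every primary bar.

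The first comparison asks how metastasis lines differ from primary lines within each treatment. The simple epithelial keratins were near 0 in the metastasis lines. Krt8 stood at 2.27, 1.56 and 0.643 CPM in M1, M2 and M3 with PLX4720, against 2672, 2236 and 3082 CPM in T1, T2 and T3. With DMSO it stood at 1.15, 0.301 and 4.75 CPM in the metastasis lines, against 1926, 2359 and 3156 CPM in the primary lines. The groups did not overlap, and the highest metastasis library, M3 with DMSO, held 164 fragments of Krt8. The fitted difference was -10.79 ± 0.63 on the log2 scale with PLX4720 (SE; edgeR adjusted p = 0.00051) and -10.23 ± 1.18 with DMSO (adjusted p = 0.00443).

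Krt18, the type I partner of Krt8, followed the same pattern. With PLX4720 it stood at 1.49, 1.26 and 1.14 CPM in M1, M2 and M3, against 1883, 1854 and 2723 CPM in T1, T2 and T3, and the fitted log2 difference was -10.68 ± 0.36 (edgeR adjusted p = 0.00013). With DMSO it stood at 1.84, 0.151 and 9.16 CPM in M1, M2 and M3, against 1909, 2509 and 3118 CPM in T1, T2 and T3, a difference of -9.40 ± 1.49 (adjusted p = 0.0115). M3 with DMSO was again the highest metastasis library, and the sites did not overlap. Krt19, a keratin of bile duct and progenitor cells, stood at 8.67, 0.781 and 5.46 CPM in M1, M2 and M3 with PLX4720, against 1278, 1019.7 and 1325 CPM in T1, T2 and T3. With DMSO it stood at 5.31, 0.151 and 2.52 CPM, against 888, 829.6 and 874 CPM. It was lower in the metastasis lines by a log2 difference of -7.93 ± 0.94 with PLX4720 and -8.34 ± 1.19 with DMSO (edgeR adjusted p = 0.00483 and 0.00881), and M2 was the lowest library of each treatment.

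Krt7, Krt20 and Krt23 were lower too, but they varied widely among the primary lines. Krt7, the type II keratin of bile ducts, stood at 1.24, 2.49 and 3.91 CPM in M1, M2 and M3 with PLX4720, against 239, 18 and 153 CPM in T1, T2 and T3, a log2 difference of -5.73 ± 1.05 (edgeR adjusted p = 0.017). With DMSO the metastasis lines held 7 fragments of Krt7 in all, against 14089 in the primary lines, and the call passed (edgeR adjusted p = 0.00882). The pooled CPM was 1780.2-fold lower, with an exact 95% interval of 864 to 4428 that covers counting error only. T2 was the low primary line for Krt7, at 18 CPM with PLX4720 and 11.7 CPM with DMSO.

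Krt20, a keratin of the gut lining, was highest in T3. It stood at 0.0276, 0.0300 and 0 CPM in M1, M2 and M3 with PLX4720, against 15.7, 26.6 and 186 CPM in T1, T2 and T3. With DMSO it stood at 0.0302, 0.542 and 0.957 CPM, against 17.0, 37.8 and 194 CPM. The pooled level was 3967-fold lower with PLX4720 (interval 1098 to 32758, on 2 fragments) and 167-fold lower with DMSO (127 to 224, on 52 fragments), and both calls passed (edgeR adjusted p = 0.00708 and 0.0219). Krt23, a type I keratin, differed most among the primary lines. T1, T2 and T3 held 79.9, 0.928 and 12.3 CPM with PLX4720 and 402, 0.526 and 19.5 CPM with DMSO, while the metastasis lines held 2 fragments with PLX4720 and 6 with DMSO over 3 libraries. The pooled level of Krt23 was 1641-fold lower with PLX4720 (interval 454 to 13559) and 2248-fold lower with DMSO (1032 to 6125), and the calls passed (edgeR adjusted p = 0.0223 and 0.0463), although T2 was within 1 CPM of the metastasis lines.

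Krt80, Nes and Vim did not pass the threshold at either treatment. Krt80, an epithelial keratin, stood at 1.77, 1.05 and 4.00 CPM in M1, M2 and M3 with PLX4720, against 5.37, 10.6 and 34.6 CPM in T1, T2 and T3, with log2 differences of -2.88 ± 0.86 with PLX4720 and -2.55 ± 0.67 with DMSO (edgeR adjusted p = 0.0787 and 0.0571). Nes stood at 2.35, 39.8 and 6.31 CPM in M1, M2 and M3 with PLX4720, against 603, 81.3 and 687 CPM in T1, T2 and T3. With DMSO it stood at 4.68, 54.5 and 29.8 CPM, against 616, 104 and 696 CPM. The groups did not overlap for Nes, with M2 the highest metastasis line and T2 the lowest primary line, and the log2 differences were -4.79 ± 1.34 with PLX4720 and -4.0 ± 1.07 with DMSO (edgeR adjusted p = 0.0645 and 0.0602).

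Vim was abundant at both sites. It stood at 5354, 4325 and 5769.8 CPM in M1, M2 and M3 with PLX4720, against 1878, 1638 and 3426 CPM in T1, T2 and T3, without overlap. With DMSO it stood at 5239.7, 4259.7 and 4016 CPM, against 2293, 2684 and 4317 CPM, and T3 lay above M2 and M3. The log2 difference was 1.16 ± 0.34 with PLX4720 and 0.53 ± 0.29 with DMSO (edgeR adjusted p = 0.0757 and 0.306). Des had 0 fragments in the 6 metastasis libraries and 18 over the 6 primary libraries, and it was too low to be tested. The level of Des that 0 fragments still allow is 0.0289 CPM over the 3 metastasis libraries with PLX4720.

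In each treatment 6 of the 10 members (Krt7, Krt8, Krt18, Krt19, Krt20 and Krt23) passed as lower in metastasis lines and no member as higher. Of all genes tested, 7.88% were called lower and 5.62% higher with PLX4720 (13.5% in all), and 7.49% lower and 4.64% higher with DMSO (12.1%). Fewer than 3 metastasis libraries reached the level of the filter on low counts for 2 of the 6 called with PLX4720 (Krt20 and Krt23) and for 5 of the 6 called with DMSO (Krt7, Krt18, Krt19, Krt20 and Krt23). These were tested because the primary lines hold them, so the counts are no measure of how often such genes differ. For Krt20 and Krt23 with PLX4720, and Krt7 and Krt23 with DMSO, 0 metastasis libraries reached that level, which fixes their direction. Krt18, Krt19 and Krt20 with DMSO reached it in 2 metastasis libraries, where the direction is not strictly fixed. Calls of Krt8, Krt18 and Krt19 held in both treatments without any 1 line, and without M2 and T3 together. Without M2 and T3 the calls with DMSO were 3 (Krt8, Krt18 and Krt19). Krt23 was lost with DMSO without T1, T3, M1, M2 or M3 (adjusted p = 0.0519 to 0.157) and with PLX4720 without M1, M2 or M3 (0.0737 to 0.0901). Krt20 was lost with DMSO, and Krt7 with PLX4720, without M1, M2 or M3 (0.0504 to 0.0916 and 0.053 to 0.0763). With DESeq2, Krt80 and Nes passed in both treatments and Vim with PLX4720.

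**Figure D3:**
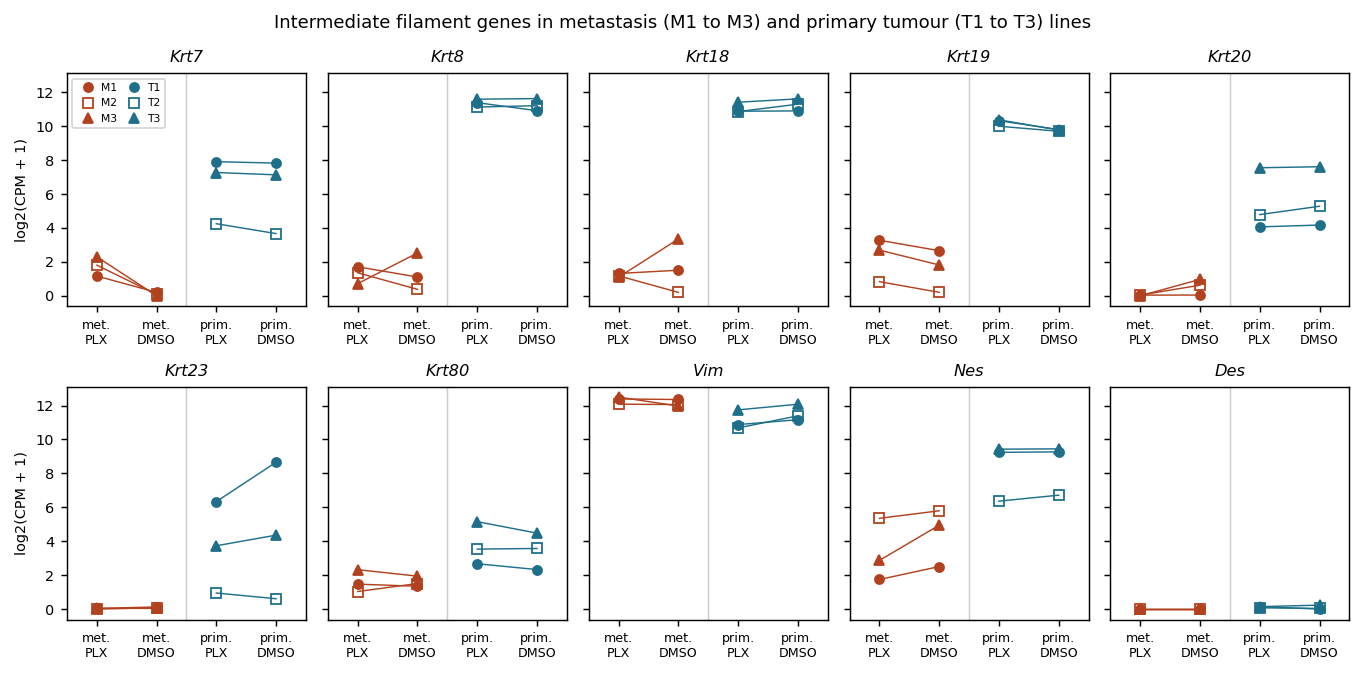
Level of each of the 10 genes, as log2(CPM + 1), in metastasis lines (left of the grey line) and primary lines (right), PLX4720 left of DMSO, with a symbol per line and its 2 libraries joined. Krt8, Krt18 and Krt19 separate the sites widely, Vim is high at both, and Des is near 0 in all libraries.

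Genes that anchor or link filaments were examined as a list of 18, of which 17 were tested. With each treatment 7 were lower in metastasis lines and 1 was higher. The median log2 difference was -1.67 with PLX4720 and -1.37 with DMSO, against 0.03 and 0.00 over all genes tested. Of all genes tested, 7.88% were lower and 5.62% higher with PLX4720, and 7.49% and 4.64% with DMSO. Of the 7, Dsp, Evpl and Pkp1 with PLX4720 and Dsp and Evpl with DMSO were tested only because the primary lines hold them. For these 3 and 2 genes the filter favoured a lower value. It did not strictly fix the direction, since with PLX4720 each reached the level in 1 metastasis library. Dsp (desmoplakin), which ties keratins to desmosomes, averaged 0.309 ± 0.332 CPM in metastasis lines and 607 ± 244 CPM in primary lines with PLX4720, and 0.314 ± 0.260 and 406 ± 115 CPM with DMSO (SD, n = 3 each). The log2 difference of Dsp was -10.91 ± 0.91 with PLX4720 and -10.32 ± 0.77 with DMSO (edgeR adjusted p = 0.00152 and 0.00131). The plakins Ppl (periplakin) and Evpl (envoplakin) were lower by -5.11 ± 0.66 and -6.58 ± 0.95 with PLX4720 (adjusted p = 0.00624 and 0.0082). Jup (plakoglobin), a desmosome protein, was lower by -3.84 ± 0.35 with DMSO, and the hemidesmosome integrin Itgb4 by -4.30 ± 0.40 with PLX4720 and -4.36 ± 0.29 with DMSO (adjusted p = 0.00219, 0.0022 and 0.000989). Syne3, a nesprin that joins filaments to the nuclear envelope through plectin, was the gene that rose, at 95.1 to 144 CPM in metastasis lines and 1.84 to 21.5 CPM in primary lines with PLX4720; it was named after its values were seen. Plec (plectin) was at 2543 to 3542 CPM in metastasis lines and 859 to 2673 CPM in primary lines with PLX4720 and did not pass.

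**Figure D4:**
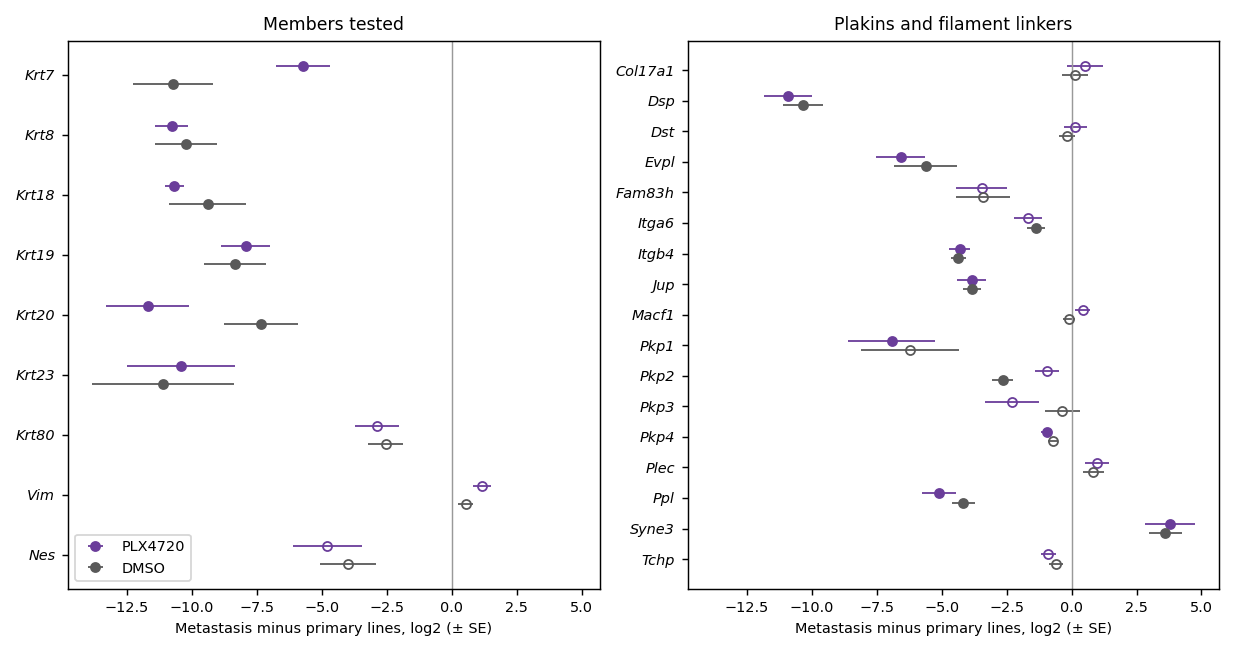
Fitted log2 difference, metastasis minus primary lines, with SE bars, for the 9 members tested (left) and 17 filament linkers (right), with PLX4720 (purple) drawn above DMSO (grey). Filled points passed an adjusted p of 0.05; Krt8, Krt18 and Dsp lie near -10 and Syne3 lies above 0.

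Other keratins were low in most libraries, and 7 of the 48 listed were tested in each treatment. With PLX4720 4 were lower in metastasis lines (Krt4, Krt6a, Krt14 and Krt79) and with DMSO 3 (Krt6a, Krt78 and Krt79), and none was higher. Over the 3 metastasis libraries of a treatment these genes had 0 to 10 fragments. All of them were tested only because the primary lines hold them, which fixes the direction of the calls. Krt14, a keratin of basal epithelium, held 1.14, 41.6 and 10.8 CPM in T1, T2 and T3 with PLX4720 and 0.167, 6.02 and 3.42 CPM with DMSO, against 1 fragment in metastasis lines with each treatment. Krt79 reached 38.3 CPM in T2 with PLX4720 and 74.0 CPM with DMSO. Of the other filament genes and lamins, Prph (peripherin) was lower by -5.41 ± 0.53 with PLX4720 and -5.19 ± 1.09 with DMSO, at no more than 2.17 CPM in any library and, like those keratins, tested only through the primary lines. Lmna, coding for lamins A and C of the nuclear envelope, was higher by 1.07 ± 0.27 with PLX4720 and 1.04 ± 0.24 with DMSO (edgeR adjusted p = 0.0461 and 0.039). Iffo2 was lower with PLX4720 (-0.95 ± 0.22, adjusted p = 0.0369). Counts for this list were 1 higher and 2 lower of 8 with PLX4720, and 1 higher and 1 lower of 9 with DMSO. Of all genes tested, 5.62% were higher and 7.88% lower with PLX4720, and 4.64% and 7.49% with DMSO.

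Among 17 genes of filament chaperoning, crosslinking and turnover, 1 was higher and 1 lower with PLX4720, and 1 was higher and 2 were lower with DMSO. Of all genes tested, 5.62% were higher and 7.88% lower with PLX4720, and 4.64% and 7.49% with DMSO. Hspa1b, a heat shock chaperone, was higher by 1.94 ± 0.29 with PLX4720 and 1.36 ± 0.33 with DMSO (edgeR adjusted p = 0.00946 and 0.0438). Tgm2, a transglutaminase that crosslinks proteins, was lower by -1.65 ± 0.39 with PLX4720 and -3.03 ± 0.57 with DMSO (adjusted p = 0.0394 and 0.0201). Hspb1, a small heat shock protein, was lower with DMSO (-5.24 ± 1.08, adjusted p = 0.0258). Of 9 filament kinases none passed with PLX4720 and Akt1 was higher with DMSO (0.70 ± 0.17, adjusted p = 0.0487).

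The second comparison asks what PLX4720 changes, line by line. Over all 6 lines Krt7 and Krt19 rose and Krt20 and Nes fell, which makes 4 of 10 members, while 27.2% of all genes tested were called (14.5% higher and 12.7% lower). Krt19 was higher with PLX4720 in 6 of 6 lines: T1, T2 and T3 held 1278, 1019.7 and 1325 CPM with PLX4720, against 888, 829.6 and 874 CPM with DMSO. M1, M2 and M3 held 8.67, 0.781 and 5.46 CPM with PLX4720, against 5.31, 0.151 and 2.52 CPM with DMSO. The primary groups did not overlap, and the metastasis groups did. The mean log2 change of Krt19 was 0.75 ± 0.12 (SE; edgeR adjusted p = 0.00307), with 1.02 ± 0.19 in metastasis lines (adjusted p = 0.00716) and 0.48 ± 0.14 in primary lines (adjusted p = 0.0706). The difference between sites was 0.54 ± 0.24 and did not pass (adjusted p = 0.345). In primary lines Krt19 passed with DESeq2 (adjusted p = 0.0406), and in metastasis lines it missed the threshold when their libraries were fitted alone (edgeR adjusted p = 0.0511).

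Krt7 rose in metastasis lines, which held almost none of it with DMSO. M1, M2 and M3 held 45, 83 and 134 fragments with PLX4720 (1.24, 2.49 and 3.91 CPM), against 5, 2 and 0 fragments with DMSO, and these groups did not overlap. The pooled CPM was 36.4-fold higher, with an exact 95% interval of 17.4 to 91.4 for counting error, and the call passed (edgeR adjusted p = 0.000343). T1, T2 and T3 held 239, 18 and 153 CPM with PLX4720, against 225, 11.7 and 139 CPM with DMSO. That was higher in each primary line, with a fitted log2 change of 0.27 ± 0.20 (adjusted p = 0.434). The difference between sites passed at 4.83 ± 0.59 (adjusted p = 0.00692), but not without M2 and T3 (4.64, adjusted p = 0.103). In the same metastasis lines smooth muscle and pericyte markers summed to 1861 to 3813 CPM with PLX4720 and 214 to 886 CPM with DMSO. Of the cholangiocyte list Spp1 was lower, at 1193 to 2514 CPM with PLX4720 and 4580.3 to 9194 CPM with DMSO. On the log2(CPM + 1) scale Slc4a2 was higher in each of these 3 lines, by 0.22 to 0.26. Sox9 of the same list changed by 0.02, -0.41 and -0.82 in M1, M2 and M3 on that scale. The part of these markers in the change of Krt7 was not tested. Even with PLX4720 the highest metastasis library for Krt7, M3, stayed below T2, the lowest primary library.

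Krt20 went the other way in metastasis lines. M1, M2 and M3 held 1, 1 and 0 fragments with PLX4720, against 1, 18 and 33 with DMSO, so the change rests on M2 and M3. The pooled level was 26.8-fold lower with PLX4720 (exact 95% interval 7.04 to 227) and the call passed (edgeR adjusted p = 0.00292). Only 2 of the 6 metastasis libraries reached the level of the filter for Krt20, so it was tested because the primary lines hold it. In the fit of the metastasis libraries alone it was not tested. In T1, T2 and T3 the levels were 15.7, 26.6 and 186 CPM with PLX4720, against 17.0, 37.8 and 194 CPM with DMSO, a log2 change of -0.22 ± 0.17 (adjusted p = 0.451). The difference between sites was -4.22 ± 0.74 (adjusted p = 0.0231). It was lost without T1, T3, M2 or M3 (adjusted p = 0.058, 0.0623, 0.0801 and 0.144). Between sites 2 of 10 members differed in their change, Krt7 and Krt20, while 2.94% of all genes tested were called (1.85% with a higher and 1.09% with a lower change in metastasis lines).

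In metastasis lines the log2 change of Nes was -1.20 ± 0.29, a decrease (edgeR adjusted p = 0.0214). M1, M2 and M3 held 2.35, 39.8 and 6.31 CPM with PLX4720, against 4.68, 54.5 and 29.8 CPM with DMSO, lower in each line and most in M3. T1, T2 and T3 held 603, 81.3 and 687 CPM with PLX4720, against 616, 104 and 696 CPM with DMSO, with a log2 change of -0.13 ± 0.26 below the threshold of a call (adjusted p = 0.8). For the 6 lines together it was -0.66 ± 0.20 (adjusted p = 0.0352), and it missed the threshold without T1, T2 or T3 (adjusted p = 0.0719, 0.0877 and 0.0693). In metastasis lines 4 of 10 members passed (Krt7, Krt19, Krt20 and Nes), while 20.4% of all genes tested were called (12.0% higher and 8.36% lower). When the metastasis libraries were fitted alone 1, Krt7, passed. Krt7 reached the level of the filter in 3 metastasis libraries with PLX4720 and 0 with DMSO. In that fit it was thus tested only because the PLX4720 libraries hold it, which fixes its direction.

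Vim values differed in opposite directions at the 2 sites, and neither difference passed. T1, T2 and T3 held 1878, 1638 and 3426 CPM with PLX4720, against 2293, 2684 and 4317 CPM with DMSO. M1, M2 and M3 held 5354, 4325 and 5769.8 CPM with PLX4720, against 5239.7, 4259.7 and 4016 CPM with DMSO. Vim was thus lower in 3 of 3 primary lines and higher in 3 of 3 metastasis lines, where M1 and M2 differed by 0.03 and 0.02 on the log2(CPM + 1) scale. The log2 change was -0.44 ± 0.13 in primary lines (edgeR adjusted p = 0.0745) and 0.20 ± 0.13 in metastasis lines (adjusted p = 0.322). The difference between sites was 0.64 ± 0.19 (adjusted p = 0.123). With DESeq2 the decrease in primary lines and the difference passed (adjusted p = 0.0274 and 0.0347).

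Krt8 and Krt18 showed no common response. Krt8 changed with PLX4720 by 0.60, 0.98 and -1.81 in M1, M2 and M3 and by 0.47, -0.08 and -0.03 in T1, T2 and T3, as differences of log2(CPM + 1). Krt18 changed by -0.19, 0.97 and -2.25 in M1, M2 and M3 and by -0.02, -0.44 and -0.20 in T1, T2 and T3. M3, whose DMSO library held the most fragments of both genes among the metastasis libraries, had the largest change of each gene. Over all lines Krt8 had a log2 change of -0.02 ± 0.43 and Krt18 of -0.58 ± 0.43 (edgeR adjusted p = 0.991 and 0.357). Without M3 the change of Krt8 was 0.79 over all lines and 1.44 in metastasis lines, and both passed (adjusted p = 0.02 and 0.0271). That of Krt18 turned to 0.21 and 0.60 without passing (0.665 and 0.493). The sign of Krt8 over all lines also turned without T2 (0.04) and without T3 (0.01).

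In primary lines 0 of 10 members passed with edgeR, 3 (Krt19, Krt23 and Vim) had an unadjusted p under 0.05, 2 passed with DESeq2, and 8.23% of all genes tested were called (4.46% higher and 3.77% lower). Krt23 was lower in T1, at 79.9 CPM with PLX4720 and 402 CPM with DMSO, and in T3, at 12.3 and 19.5 CPM, and higher in T2, at 0.928 and 0.526 CPM (log2 change -1.20 ± 0.41, edgeR adjusted p = 0.109). Krt80 had log2 changes of 0.36 ± 0.22 in primary lines and 0.03 ± 0.26 in metastasis lines (adjusted p = 0.341 and 0.961). These treatment calls rest on comparing both libraries of a line: without the line as a block, 0 of 10 members passed over all lines with edgeR, and 1 had an unadjusted p under 0.05.

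**Figure D5:**
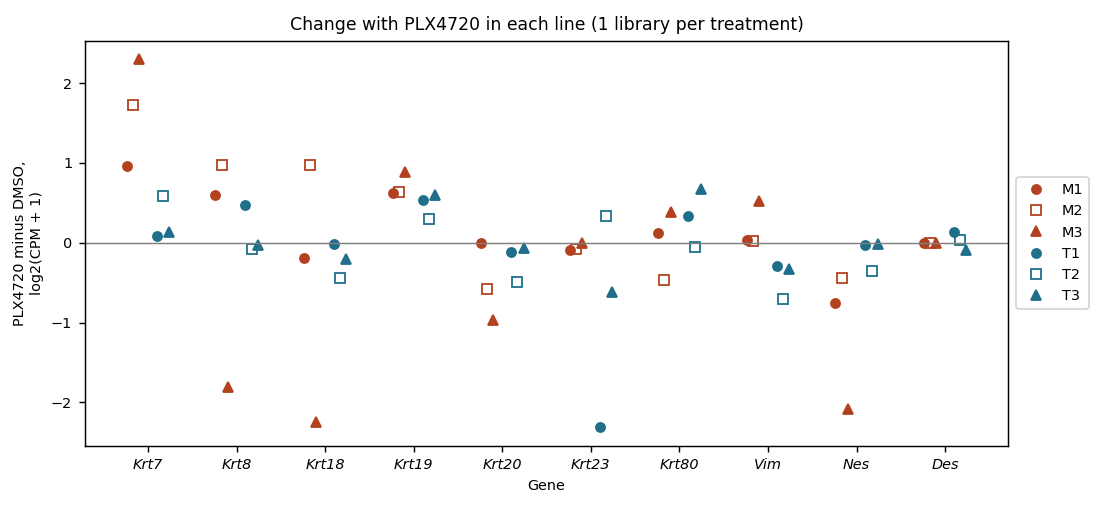
Change with PLX4720 in each line, as the difference of log2(CPM + 1) between its PLX4720 and its DMSO library, for the 10 genes (metastasis lines in red, left, primary lines in blue, right). Krt7 and Krt19 lie above 0 in 6 of 6 lines, and M3 stands apart for Krt8, Krt18 and Nes.

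Linker genes changed with PLX4720 in both directions, as did genes in general. Over all lines 3 of 17 rose and 2 fell, while 14.5% of all genes tested rose and 12.7% fell. Their median log2 change was -0.05, against 0.03 over all genes. At each site 2 rose and 2 fell. Of all genes tested, 12.0% rose and 8.36% fell in metastasis lines, and 4.46% and 3.77% in primary lines. Pkp2 (plakophilin), a desmosome plaque protein, averaged 45.8 ± 26.0 CPM with PLX4720 and 10.2 ± 3.68 CPM with DMSO in metastasis lines, and 88.9 ± 25.9 and 63.9 ± 23.7 CPM in primary lines (SD, n = 3 each). It rose by 2.09 ± 0.16 in metastasis lines and 1.30 ± 0.11 over all lines (edgeR adjusted p = 0.0001 and 0.000185), with a difference between sites of 1.57 ± 0.22 (adjusted p = 0.0103). Fam83h, which organises keratin filaments, rose by 0.32 ± 0.08 over all lines. Itga6, the integrin chain that pairs with Itgb4, fell in 6 of 6 lines, to 69.0 ± 48.5 CPM with PLX4720 against 219.7 ± 37.9 CPM with DMSO in metastasis lines. In primary lines Itga6 averaged 219 ± 100.5 CPM with PLX4720 and 565 ± 241 CPM with DMSO, and the log2 change over all lines was -1.62 ± 0.15 (adjusted p = 0.000242). Syne3 fell by 0.98 ± 0.19 over all lines (adjusted p = 0.00711). Evpl rose in primary lines by 1.03 ± 0.21 (adjusted p = 0.0257), and Tchp (trichoplein) by 0.42 ± 0.10 (adjusted p = 0.0437). In metastasis lines Macf1, a linker of actin and microtubules, rose by 0.47 ± 0.11, and Pkp3, which stayed at or under 1.63 CPM there, fell by 1.74 ± 0.51 (adjusted p = 0.0159 and 0.0435).

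Filament chaperones and crosslinkers rose in 5 and fell in 2 of 17 cases over all lines, with a median of 0.03. In metastasis lines 6 rose and 2 fell, and in primary lines 2 rose and 1 fell. Over all genes tested 14.5% rose and 12.7% fell, with 12.0% and 8.36% in metastasis and 4.46% and 3.77% in primary lines. Tgm2 rose in 6 of 6 lines, to 38.8 ± 16.0 CPM with PLX4720 against 6.58 ± 3.99 CPM with DMSO in metastasis lines, and to 123 ± 36.5 against 53.7 ± 12.3 CPM in primary lines. The log2 change of Tgm2 was 2.68 ± 0.18 in metastasis and 1.19 ± 0.16 in primary lines (edgeR adjusted p = 4.61e-05 and 0.00682), and the difference of 1.5 ± 0.23 passed (adjusted p = 0.0154). Cryab (αB-crystallin), a chaperone of desmin and other filaments, rose in 6 of 6 lines by 1.80 ± 0.18 (adjusted p = 0.000356). Hspa8, a chaperone of the heat shock family, fell by 0.31 ± 0.07 (adjusted p = 0.0109). Hspa1b rose in metastasis lines by 0.70 ± 0.15 (adjusted p = 0.0138). Among 9 kinases that phosphorylate filaments 3 fell, with log2 changes of -0.33 for Cdk1, -0.26 for Aurkb and -0.20 for Akt1, and the median was 0.05 (adjusted p = 0.00483, 0.0215 and 0.0395).

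Other keratins fell in 3 of 15 cases over all lines (median -0.11) and other filament genes and lamins in 5 of 10 (median -0.19), and none rose. In metastasis lines 2 other keratins and 4 other filament genes fell, and in primary lines 1 keratin rose, 1 fell and 1 other filament gene fell. Of all genes tested, 12.7% fell over all lines, 8.36% in metastasis and 3.77% in primary lines, and 14.5%, 12.0% and 4.46% rose. For 13 of the 15 keratins, among them the 2 called in metastasis lines, fewer than 3 of the 6 metastasis libraries reached the filter. These 13 needed libraries of primary lines to be tested. Krt76 held 0.207, 6.77 and 2.50 CPM in T1, T2 and T3 with PLX4720, against 2.28, 24.0 and 7.62 CPM with DMSO, a log2 change of -2.03 ± 0.32 (edgeR adjusted p = 0.0115). Krt14 rose in primary lines by 2.32 ± 0.30 (adjusted p = 0.0083), higher in 3 of 3. Krt13 fell by 1.05 ± 0.25 over all lines, with 109 fragments in T1 with PLX4720 against 348 with DMSO (adjusted p = 0.0153). Krt12 had 0 fragments in the metastasis lines with PLX4720, against 0, 40 and 18 in M1, M2 and M3 with DMSO, at least 19.9-fold lower over the group, and it too reached the filter in 2 of the 6 metastasis libraries. Nefl, a neurofilament chain, had a log2 change of -3.76 ± 0.39 in metastasis lines (adjusted p = 0.00108), mostly in M1, with 0.856 CPM with PLX4720 and 9.78 CPM with DMSO. Nefm changed there by -2.87 ± 0.37 (adjusted p = 0.00255). In metastasis lines Iffo2 fell by 0.97 ± 0.12, and Lmnb2, a lamin, fell by 0.37 ± 0.08 (adjusted p = 0.000978 and 0.0148). Bfsp1, a lens filament gene, fell by 1.18 ± 0.28 over all lines at no more than 1.72 CPM (adjusted p = 0.0151).

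Genes with the most similar pattern were ranked by Pearson's r of log2(CPM + 1) over the 12 libraries, among 16546 genes with the members left out. The 12 libraries share 6 lines and fall into the 2 sites, so a high r mostly says that a gene separates the sites. For Krt8 these were Ildr2, Cdh1, Dsp, Ripk4 and Msln (r = 0.997 to 0.995), and for Krt18 Cxadr, Msln, Tm4sf4, Ildr2 and Plch1 (0.994 to 0.992). For Krt19 they were Epb41l4b, Msln, Jak2, Anxa8 and Crybg1 (0.993 to 0.990). Vim was most like Tspan4, Ggta1, 3110056K07Rik, Serpinh1 and Angptl2 (0.979 to 0.931), and Nes most like Zfp57, Dennd1b, Ccdc84, Foxf2 and C2cd2l (0.958 to 0.95). Among the members, Krt8 and Krt18 had r = 1.00, and Vim was negatively related to every other member, at -0.77 with Krt8 and -0.30 with Des.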

How the data were processed

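RNA came from 12 libraries of 6 cell lines, 3 per group, made per the labels' protocols as stranded total RNA libraries without ribosomal RNA. The deposited values are raw counts, which the authors made with featureCounts 1.5.2 for pairs with both ends mapped to exons of the Ensembl 84 annotation of GRCm38, per the file headers. Which aligner came first was not given in the sources used here. No strand setting appears in the command of the headers, so a gene and its antisense partner cannot be told apart: Gm671, Gm36026 and Gm35853 of the GENCODE annotation share 77, 101 and 240 exon bases with Krt7, Krt8 and Krt80. Fragments of Krt8 could also be split with Krt8-ps, which had 0 to 325 per library.

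Counts were tested in R 4.3.3 with edgeR 4.0.16 (TMM, filterByExpr, quasi-likelihood test, Benjamini-Hochberg over all genes tested, threshold 0.05). PLX4720 against DMSO was fitted on 12 libraries (16555 genes) with the cell line as block and a treatment term per site. Values over all lines average the terms of both sites. Sites were compared on the 6 libraries of each treatment (15276 genes with PLX4720, 14992 with DMSO). CPM values use TMM library sizes, changes per line use log2(CPM + 1), and SEs, taken from the F statistic, are approximate. The block comes from the labels: deviations of the libraries of 1 line correlated at 0.837 to 0.923. No pair of libraries in a group was a duplicate (chi-square per degree of freedom of 127 or more). Limits for 0 fragments use 3 counts over a group, and these and the 95% exact intervals cover counting error only, since reads carry no molecular identifiers. Gene symbols came from GENCODE, matched for 47224 of 47729 IDs. Each fit was tested on simulated data, with outcomes not given here. For PLX4720 these were drawn without differences between lines, with changes only in genes well counted at both sites. They thus do not cover the pairing of libraries or genes on few fragments. Alternatives were DESeq2 1.42.0, its size factors, no filter, other fits and left-out lines.

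Members and lists were chosen with earlier results of these data known. Text names all members, up to 4 genes per list and comparison with the smallest p past the threshold, up to 4 markers per list with the highest mean CPM, and the 5 most similar genes for Krt8, Krt18, Krt19, Vim and Nes. Des was too low to be ranked. The values of 1 gene that the rule names are not reported here. Plec, Syne3 as a gene higher in metastasis lines, Pkp1, Alb, Epcam, Lrat, Hand2 and Ccl21a were named after their values were seen.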

Additional observations from a re-analysis of the deposited data

Results flagged for a closer look

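For 2 members the change with PLX4720 differed between metastasis and primary lines by the test of the difference itself. Krt7 had a difference of 4.83 ± 0.59 on the log2 scale (SE; edgeR adjusted p = 0.00692), with the higher change in metastasis lines, where the DMSO libraries held 7 fragments in all. Krt20 had a difference of -4.22 ± 0.74 (adjusted p = 0.0231), with 2 fragments in metastasis lines with PLX4720 and 52 with DMSO, and it was tested because the primary lines hold it.

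Genes of the filament lists that differed in the same test were Krt12 (-7.18, on 0 fragments in metastasis lines with PLX4720 and 58 with DMSO), Nefl (-3.77), Iffo2 (-1.17), Pkp2 (1.57) and Tgm2 (1.5). Groups of 3 lines were too small to be tested for a single outlying library.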

How the results depend on the processing

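Of 76 alternative counts of members called, 59 stayed within 1.5 times the count reported, and of 682 alternative values of a member 591 kept direction and call, 41 lost the call, 27 gained it and 23 changed sign. The site calls of Krt8, Krt18 and Krt19 held in each alternative run. DESeq2 size factors in place of TMM and leaving out mitochondrial genes changed no count of members. The lines M2 and T3 were left out together after the data had been seen: 3 members then passed between sites with DMSO and 0 in the difference between sites (4 unadjusted).

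Counts in primary lines with PLX4720 were 2 with DESeq2, 3 without a filter on low counts, 2 with the libraries of that site alone, and 0 to 1 without 1 line. Metastasis libraries alone gave 1, Krt7, which in that fit was tested only because the PLX4720 libraries hold it. The difference between sites gave 4 without a filter and 1 to 2 without 1 line. With no replicate block, that is without the line as a term, 0 members passed over all lines, in metastasis lines or in the difference (1, 2 and 1 at an unadjusted p under 0.05). A replicate block of the line number across sites left 6 members in each treatment. Its Krt7 value with PLX4720 was -5.22 (edgeR adjusted p = 0.0591), and Krt80 then passed (-2.67, adjusted p = 0.0463). Same-numbered lines of both sites correlated at -0.0985 to 0.0118. Lines of different number were not correlated across sites, so these values cannot show whether same-numbered lines share an animal. DESeq2 called 9 members between sites with PLX4720 and 8 with DMSO, and the fit of all 12 libraries in 4 groups called 9 and 6. That fit of 4 groups has no line term. It takes both libraries of a line as separate replicates, although their deviations correlated at 0.837 to 0.923, so its p-values are too small.

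Counts of all genes called moved by more than 1.5 times in these cases. DESeq2 called 3163 genes between sites with PLX4720 (2061 with edgeR), 2974 with DMSO (1819) and 920 in the difference (487), where 996 passed without a filter. Without the block 18 genes passed over all lines (4496 with it), 1 in primary lines (1362), 15 in metastasis lines (3378) and 0 in the difference. Libraries of a site alone gave 2491 in primary and 2195 in metastasis lines, no filter gave 2052 in primary lines, and the line number as block gave 1106 between sites with DMSO. Without 1 line the counts ran from 2417 to 4384 over all lines, 91 to 2252 in primary lines, 1891 to 3090 in metastasis lines, 122 to 798 in the difference, 1097 to 1712 between sites with PLX4720 and 901 to 1595 with DMSO. Without M2 and T3 they were 1632, 97, 1461, 8, 632 and 651 in that order.

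Signs turned for values near 0 or on few fragments. With DESeq2 Krt8 was 0.24 over all lines, 0.35 in metastasis lines and 0.21 in the difference, where Krt18 was 0.01. With metastasis libraries alone Krt8 was 0.08. In the difference, Krt23 was 0.70 without the block and 0.61 without M2 and T3, and Krt80 was 0.15 without M2 and T3. Without 1 line, Krt8 ran from -0.38 to 0.79 over all lines, from -0.04 to 0.25 in primary lines, from -0.92 to 1.44 in metastasis lines and from -1.06 to 1.29 in the difference. Krt18 ran from -0.99 to 0.21 over all lines, from -1.79 to 0.60 in metastasis lines and from -1.60 to 0.80 in the difference. Nes ran from -0.17 to 0.00 in primary lines, Krt80 from -0.29 to 0.35 in metastasis lines and Krt23 from -1.38 to 0.17 in the difference. The cause was not tested. Changes in each line moved by more than the spread of the site in 21 of 180 cases, all with a pseudocount of 0.1 or 5 CPM.

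Depth limits Krt7, Krt20, Krt23 and Des in metastasis lines, where some groups hold 0 to 7 fragments, and 3 lines per site limit all site tests.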
